A study of Mus musculus with 8 samples.

Results

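Chemokines are small secreted proteins that draw leukocytes along a concentration gradient, and their receptors are G protein-coupled receptors on the moving cells. The genes described here are the mouse chemokines and chemokine receptors, chosen by symbol (Ccl, Cxcl, Cx3cl, Xcl, Ccr, Cxcr, Cx3cr, Xcr or Ackr and a number) among protein-coding genes with a probe set of their own. There were 55 such genes among 30627 genes on the array: 34 ligands, 17 receptors and 4 atypical receptors, which bind chemokines without the usual G protein signal and clear or hold them. RefSeq holds 61 genes of these symbols. The 6 without a probe set of their own, among them Ccl27b and the near-identical copies of Ccl21, were not analysed here.

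Liver RNA was measured on an Affymetrix mouse array in 8 male C57BL/6 mice, all kept on high fat food, for 13 weeks. In 4 of them anti-miR-128-3p, an inhibitor of the microRNA miR-128-3p, was injected 5 times into the peritoneal cavity, and 4 mice served as controls. The labels call the control injection a vehicle in one field and a control in others, give no age, and in one field name the microRNA itself where titles and design name the inhibitor. Groups here follow the titles, and each array was taken as 1 mouse. Whole liver was used, so fewer cells of a type and less RNA per cell cannot be told apart in any value below.

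In the liver, Kupffer cells, stellate cells, endothelium and hepatocytes all secrete chemokines, and the CCL2 to CCR2 axis is known for bringing monocytes into livers on rich diets. CXCL9 and CXCL10 are induced by interferons and call in T and NK cells through CXCR3, while CXCL1 and its relatives call in neutrophils through CXCR2. The microRNA that the treatment was directed against is shown for reference with its seed (bases 2 to 8) in capitals. RefSeq gives the same mature sequence for both mouse genes, Mir128-1 (chr1:128202404-128202424, plus strand, GRCm38.p6) and Mir128-2 (chr9:112118644-112118664, minus strand).
mmu-miR-128-3p: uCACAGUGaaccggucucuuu

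Values are log2 signals made with RMA, so a difference of 1 is a doubling. The hepatocyte genes Alb, Ttr, Apoa1, Cps1, Cyp2e1 and Tat were bright, with a mean over control livers of 13.9 for Alb and 13.0 for Tat. The 8 arrays correlated across genes at r = 0.992 to 0.996. Detection calls were not used here, and the arrays' negative control rows had medians of 4.32 to 4.48 and 95th percentiles of 7.40 to 7.53. Against these, 30 of the 55 chemokine and receptor genes lay above the negative control median on all 8 arrays, and 17 lay below it on every array. Only Ccl9 and Cxcl12 exceeded the 95th percentile on all 8 arrays, and Cxcl9, Cxcl1, Cxcl13 and Ccl5 did on some. For a gene at the level of the negative controls, the difference between groups may understate that in the RNA.

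Between anti-miR-128-3p and control livers, no chemokine or receptor gene passed the test. By limma, a linear model with moderated variances fitted on all 30627 genes, 0 of the 55 had a Benjamini-Hochberg adjusted p under 0.05, as was the case for all genes (0.00%). The smallest adjusted p among the 55 was 0.491, for Ccl2. At an unadjusted p under 0.05 there were 2 higher, Ccl2 and Ccl7, where 4.26% of all genes were, and 1 lower, Ccl25, where 3.37% of all genes were. Together these are 5.45% of the 55 against 7.63% of all genes, so the share was near the background. Treated and control values did not overlap for 1 gene, Ccl2, or 1.82% against 4.41% of all genes (2.52% higher and 1.89% lower). The higher genes at unadjusted p numbered 5 (9.09%) without control replicate 4 or without treated replicate 3, where 3.96% and 4.63% of all genes were higher, and 4 (7.27%, against 3.17%) without treated replicate 1. Lower genes numbered 2 (3.64%) without treated replicate 1 or 2, against 2.44% and 3.81% of all genes, and 0 without treated replicate 3, against 3.32%. Genes without overlap numbered 2 without control replicate 3, 3 without control replicate 1, treated replicate 2 or treated replicate 3, and 4 without control replicate 4 or treated replicate 1. Over all genes that share was 6.27% to 8.70% in these 6 fits, since fewer livers make such separation easier by construction.

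The differences were small. For 43 of the 55 genes the log2 difference was under 0.2 in size, 30 were higher and 25 lower, and their median was 0.01, against -0.0017 over all genes. The median was 0.01 over the 34 ligands, -0.0043 over the 17 receptors and -0.08 over the 4 atypical receptors. By role, the medians ran from -0.10 for the 3 eosinophil-attracting CC ligands to 0.41 for the interferon-induced pair Cxcl9 and Cxcl10. That last value was 0.09 without control replicate 1, 0.25 without treated replicate 3 and 0.67 without control replicate 4.

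**Figure D1:**
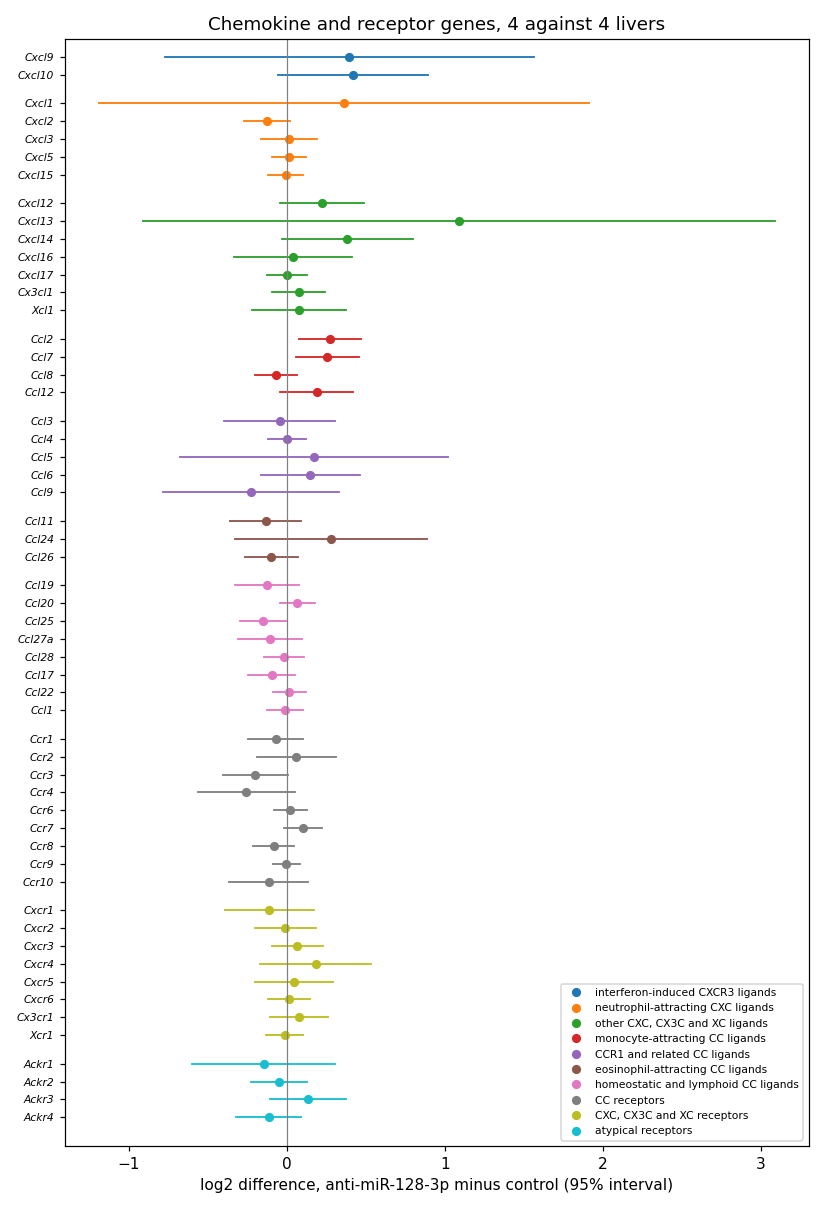
Log2 difference between anti-miR-128-3p and control livers (points) with limma's 95% interval (lines) for the 55 genes, coloured by role, 4 livers in each group. Most points lie close to 0, and the widest intervals belong to Cxcl13, Cxcl1 and Cxcl9.

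Of the 4 monocyte-attracting CC ligands, 3 had higher treated means, and the median log2 difference of the group was 0.22, or 0.13 without treated replicate 3. Ccl2, the main ligand of CCR2 on inflammatory monocytes, was at 4.98, 5.12, 4.96 and 5.03 in control replicates 1 to 4 and at 5.22, 5.23, 5.56 and 5.16 in treated replicates 1 to 4. All treated values lay above all control values, and treated replicate 3 stood highest. The difference was 0.27 ± 0.09 (log2, limma SE, 1.21-fold), with an unadjusted p of 0.0129 and an adjusted p of 0.491. Leaving out treated replicate 3 gave 0.18. Ccl7, another ligand of CCR2, was at 4.36, 4.30, 4.28 and 4.18 in control and 4.51, 4.32, 4.77 and 4.53 in treated livers. Its groups overlapped only between control replicate 1 and treated replicate 2, and the difference was 0.25 ± 0.09 (limma adjusted p = 0.541). Both genes lay near the negative control level, where Ccl7 exceeded the negative control median on 3 of the 8 arrays.

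Ccl12, a mouse relative of Ccl2 that also binds CCR2, was at 3.05, 3.06, 3.03 and 2.97 in control livers and 3.00, 3.17, 3.53 and 3.16 in treated livers. It was below the negative control median on every array, and its difference of 0.19 ± 0.10 did not pass (limma adjusted p = 0.732) and was 0.08 without treated replicate 3. Ccl8 differed by -0.07 ± 0.06. In the RefSeq order of genes Ccl2, Ccl7, Ccl11, Ccl12 and Ccl8 follow one another on chromosome 11. Treated replicate 3 held the highest value of Ccl2, Ccl7 and Ccl12, but not of the neighbours Ccl11 and Ccl8. Ccl11, the eotaxin that binds CCR3, was at 5.33, 4.96, 5.07 and 5.10 in control and 4.87, 5.06, 4.83 and 5.16 in treated livers (-0.14 ± 0.10). The receptor Ccr2 was at 4.13, 4.02, 3.86 and 3.84 in control and 3.97, 3.86, 4.33 and 3.92 in treated livers, a difference of 0.06 ± 0.11, and it too was highest in treated replicate 3 and never above the negative control median.

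Treated replicate 3 was also the liver with the highest level of other gene lists. The summed level of the monocyte and recruited macrophage markers (mean centred log2 signal of the 9 measured of 10) ran from -0.32 to 0.11 in control livers and from -0.06 to 0.28 in treated livers, where replicate 3 was highest. Their median difference was 0.12, with 7 of 9 higher, and it turned to -0.02 without control replicate 3 and was 0.27 without control replicate 1. Gpnmb differed by 0.31 ± 0.10 and Trem2 by 0.12 ± 0.06, while the lower markers Chil3 and Fn1 differed by -0.16 ± 0.42 and -0.04 ± 0.09. The summed level of the 8 stellate cell markers ran from -0.26 to -0.04 and from -0.06 to 0.58, again highest in that liver. In that list 4 were higher and 4 lower, with a median difference of 0.02 that turned sign with single livers left out (-0.03 to 0.10). The collagen genes Col1a1 (1.62 ± 0.41) and Col3a1 (1.22 ± 0.35) had the largest values, while Reln differed by -0.29 ± 0.09 and Hgf by -0.28 ± 0.11. The part of these cells in the Ccl2 values was not tested.

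**Figure D2:**
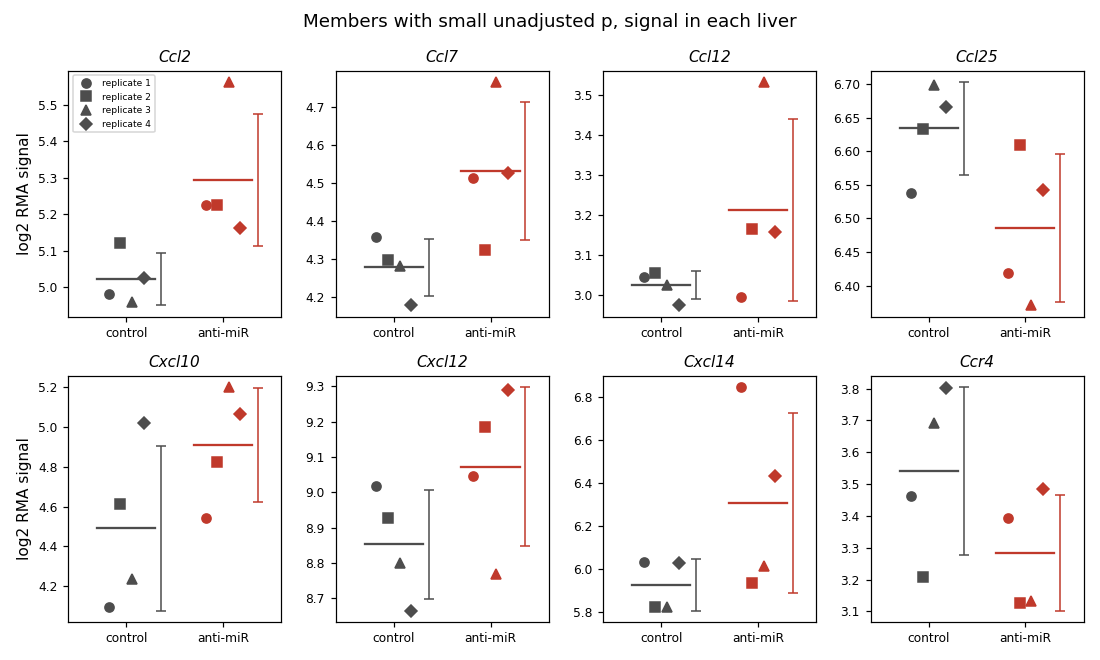
Log2 RMA signal in each liver for 8 genes with small unadjusted p-values. Points are livers, marked by replicate number, horizontal lines are group means and bars are SD (n = 4 each). Ccl2 is the single gene of the 55 without overlap, and treated replicate 3 is highest for Ccl2, Ccl7 and Ccl12.

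The interferon-induced ligands of CXCR3, the receptor of activated T and NK cells, were both higher in treated livers on average, with groups that overlapped. Cxcl10 was at 4.10, 4.61, 4.24 and 5.02 in control and 4.55, 4.83, 5.20 and 5.07 in treated livers. Control replicates 2 and 4 lay within the treated range, and control replicates 1 and 3 below it. The difference was 0.42 ± 0.21 (1.34-fold, limma adjusted p = 0.710). Leaving out control replicate 4 gave 0.59, and leaving out control replicate 1 gave 0.29. Cxcl9 was at 6.12, 8.41, 7.27 and 8.70 in control livers, the 34th largest control SD of all 30627 genes, and at 7.78, 7.89, 8.67 and 7.74 in treated livers. Its difference of 0.40 ± 0.52 (95% interval -0.78 to 1.57) turned to -0.11 without control replicate 1. The receptor Cxcr3 was at 4.84, 4.91, 4.80 and 4.82 in control and 4.94, 4.72, 5.06 and 4.91 in treated livers (0.07 ± 0.07).

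The third ligand of CXCR3, Cxcl11, is annotated as a transcribed pseudogene in the C57BL/6J assembly and so is not one of the 55. Its transcript signal was at 5.46, 5.46, 5.26 and 5.23 in control and 5.75, 5.73, 5.68 and 5.65 in treated livers, with no overlap between groups. The difference was 0.35 ± 0.07 (unadjusted p = 0.000543, limma adjusted p = 0.206), so it did not pass either, and it lay between 0.31 and 0.39 with any single liver left out. Of 16 listed interferon-induced genes of other kinds, all 16 had higher treated means (median difference 0.88). Of these, 15 had an unadjusted limma p under 0.05, where 4.26% of all genes were higher, but none passed over all genes. Their summed level ran from -0.75 to -0.14 in control and from 0.25 to 0.86 in treated livers. Within the control group it was highest in replicate 4, the control liver with the most Cxcl10, and within the treated group in replicate 3, the treated liver with the most Cxcl10. The part of interferon signalling in the Cxcl10 values was not tested.

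Interferon and NF-kB signals are known to act on elements in the Cxcl10 promoter. Promoter windows of RefSeq (GRCm38.p6) were searched on both strands for the core of the interferon-stimulated response element (GAAA, any 2 bases, GAAA) and for the NF-kB consensus. The latter was taken as GGGRNYYYCC, where R is A or G, Y is C or T and N is any base. Of the 55 genes 42 had a window, and the response element core was found in 3 of them (7.14%, Ccl19, Cxcl10 and Cxcl14) and in 3.99% of all genes with a window. The NF-kB consensus was found in 11 of the 42 (26.2%) and in 6.55% of all genes with a window. Besides Cxcl10, these were Cxcl1, Cxcl2, Cxcl3, Ccl1, Ccl9, Ccl20, Ccl27a, Ccr3, Ccr6 and Ackr2. The Ccl27a match lay after the start site, at 31 to 40, and not in all windows of that gene. For Ccr6, too, the match was not in all windows. Neither share was tested against that of all genes. In Cxcl10 the element core lay at -213 to -204 from the start site, and 2 overlapping NF-kB matches spanned -104 to -94. The 250 bases before the start site are shown with these matches in capitals. Sites that depart from the letters searched for would not be marked.
Cxcl10, chr5:92348890-92349139, minus strand: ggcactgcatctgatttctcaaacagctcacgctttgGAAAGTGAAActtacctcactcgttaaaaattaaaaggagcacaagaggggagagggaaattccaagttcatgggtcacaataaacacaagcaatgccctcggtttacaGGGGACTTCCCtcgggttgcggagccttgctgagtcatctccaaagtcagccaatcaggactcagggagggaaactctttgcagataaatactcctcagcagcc

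Among the 5 neutrophil-attracting CXC ligands, only Cxcl1 varied widely, and it did so within the control group. Cxcl1 was at 9.16, 7.09, 5.81 and 5.68 in control livers and 7.68, 7.26, 7.55 and 6.69 in treated livers. Control replicate 1 held the highest value of the 8 livers and control replicates 3 and 4 the lowest. Its control SD of 1.61 was the 14th largest of all 30627 genes. The difference between groups was 0.36 ± 0.69 (95% interval -1.19 to 1.92, limma adjusted p = 0.961). Without control replicate 1 it was 1.10 (unadjusted p = 0.0168, adjusted p = 0.499), and it was -0.06 without control replicate 4. Cxcl2, which like Cxcl1 binds CXCR2, was at 4.22, 4.33, 4.12 and 4.21 in control and 4.20, 4.09, 4.12 and 3.97 in treated livers, below the negative control median in every liver (-0.12 ± 0.06). Cxcl3, Cxcl5 and Cxcl15 differed by 0.01, 0.01 and -0.0092.

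Among genes of this branch, control replicate 1 stood furthest above the other livers for Cxcl1. It was also the highest of the 8 livers for Cxcl3, Cxcl5 and Cxcl15, by margins of 0.10, 0.03 and 0.07, the last 2 genes being below the negative control median on every array. It was highest too for the receptors Cxcr1 and Cxcr2, which neutrophils carry. Cxcr2 was at 5.06, 4.80, 4.66 and 4.74 in control and 4.82, 4.71, 4.90 and 4.80 in treated livers, a difference of -0.010 ± 0.085. Beside this, 9 of the 10 neutrophil markers were highest in control replicate 1, with S100a8 at 8.38 there and between 3.45 and 4.70 in the other 7 livers. The exception was Ly6g, at 6.02 in control replicate 1 and highest in treated replicate 4 (6.21). The summed level of the 10 markers was 1.53 in control replicate 1, between -0.40 and -0.15 in the other controls and between -0.38 and -0.03 in treated livers. Their median difference was -0.31, and 0.07 without control replicate 1. The part of neutrophils in the Cxcl1 values was not tested.

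The upstream windows of Cxcl1 and of its neighbour Cxcl2 are shown because both carry the NF-kB consensus (capitals), at -71 to -62 and at -97 to -88 from the start site, while their signals differed in spread. The control SD was 1.61 for Cxcl1 and 0.09 for Cxcl2. Cxcl2 lay below the negative control median on every array, where the signal may understate the spread in the RNA. The cause of the contrast was not tested.
Cxcl1, chr5:90890995-90891244, plus strand: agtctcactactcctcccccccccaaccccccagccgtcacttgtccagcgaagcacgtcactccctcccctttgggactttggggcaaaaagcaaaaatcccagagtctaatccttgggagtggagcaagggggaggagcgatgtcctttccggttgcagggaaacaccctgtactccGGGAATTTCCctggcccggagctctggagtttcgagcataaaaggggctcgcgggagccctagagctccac
Cxcl2, chr5:90903649-90903898, plus strand: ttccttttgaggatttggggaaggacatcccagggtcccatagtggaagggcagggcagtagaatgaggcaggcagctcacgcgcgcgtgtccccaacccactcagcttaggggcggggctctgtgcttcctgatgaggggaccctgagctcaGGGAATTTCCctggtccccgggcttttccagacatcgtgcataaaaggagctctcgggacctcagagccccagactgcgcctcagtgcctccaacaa

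Among the other CXC, CX3C and XC ligands, all 7 differences were above 0, with a median of 0.08, and none passed. Cxcl13, the B cell attractant that binds CXCR5, had the largest difference of the 55 genes and it depended on 1 liver. It was at 6.85, 6.05, 5.83 and 7.18 in control livers and at 10.6, 6.26, 7.10 and 6.32 in treated livers. Only treated replicate 1 lay above the control range. The difference was 1.09 ± 0.88 (2.13-fold, 95% interval -0.91 to 3.09, limma adjusted p = 0.846), and 0.08 without that liver. The SD of 2.05 over treated livers was the 6th largest of all genes. Treated replicate 1 was also the liver in which 5 of the 8 Kupffer cell markers were highest, with Marco at 9.72 there and 6.08 to 6.89 in the other 7 livers. The summed Kupffer level ran from -0.89 to -0.03 in control livers and from -0.44 to 0.97 in treated livers. All 8 markers had higher treated means (median difference 0.60, or 0.34 without treated replicate 1 and 0.40 without control replicate 3). Only 1 had an unadjusted limma p under 0.05, where 4.26% of all genes were higher, and none of the markers passed over all genes. Their part in the Cxcl13 values was not tested. The summed level of the 4 measured B cell markers was also highest in treated replicate 1, at 0.12, and ran from -0.14 to 0.07 in the other 7 livers.

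Cxcl12, the ligand of CXCR4 that retains stem and immune cells in tissues, was among the few genes well above the negative controls. It was at 9.02, 8.93, 8.80 and 8.67 in control and 9.05, 9.18, 8.77 and 9.29 in treated livers. Treated replicate 3 lay among the controls and the other 3 treated livers above all of them. The difference was 0.22 ± 0.12 (1.17-fold, limma adjusted p = 0.726), with values of 0.15 to 0.32 when single livers were left out. Its receptor Cxcr4 was at 4.996, 4.51, 4.71 and 5.28 in control and 4.91, 4.94, 5.14 and 5.23 in treated livers (0.18 ± 0.16, and 0.06 to 0.32 with single livers left out). Ackr3, the atypical receptor that takes up CXCL12, was at 4.70, 4.71, 4.54 and 4.29 in control and 4.53, 4.62, 4.85 and 4.78 in treated livers (0.14 ± 0.11, and 0.05 to 0.19). The groups overlapped for all 3 genes of this axis.

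Cxcl14, a ligand made by many epithelia, was at 6.03, 5.82, 5.82 and 6.03 in control and 6.85, 5.93, 6.02 and 6.43 in treated livers. Treated replicates 1 and 4 lay above the control range and the other treated livers within it. The difference was 0.38 ± 0.18 (1.30-fold, limma adjusted p = 0.693), and 0.20 without treated replicate 1. Cx3cl1, a ligand tethered to the membrane, was at 5.05, 5.08, 5.10 and 5.08 in control and 5.09, 4.98, 5.36 and 5.17 in treated livers. Its receptor on monocytes, Cx3cr1, was at 5.54, 5.64, 5.62 and 5.59 in control and 5.56, 5.92, 5.58 and 5.62 in treated livers. The differences were 0.07 ± 0.07 and 0.08 ± 0.08, with 95% intervals of -0.09 to 0.24 and -0.11 to 0.26. Cxcl16, also membrane-bound and made by sinusoidal endothelium and macrophages, was at 5.93, 6.38, 5.76 and 6.38 in control and 6.36, 5.93, 6.35 and 5.96 in treated livers (0.04 ± 0.17). Its receptor Cxcr6, carried by liver T and NKT cells, was at 4.25, 4.20, 4.18 and 4.38 in control and 4.19, 4.33, 4.21 and 4.33 in treated livers (0.01 ± 0.06). Xcl1 and Cxcl17 differed by 0.08 ± 0.13 and 0.0025 ± 0.056.

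**Figure D3:**
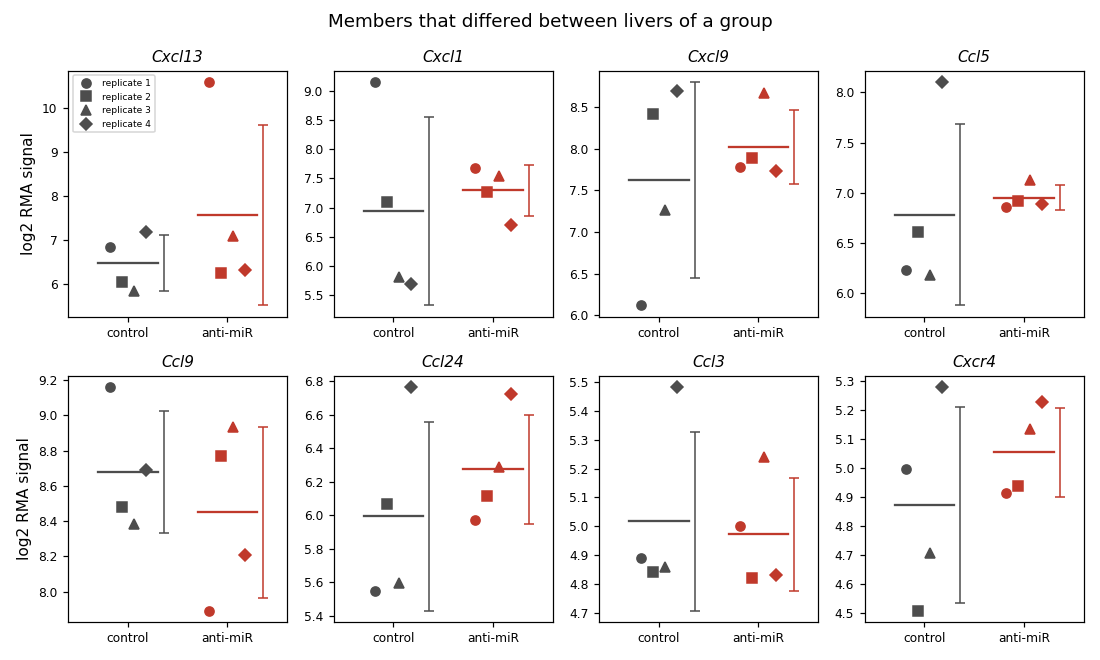
Log2 RMA signal in each liver for 8 genes that differed between livers of one group, drawn as points by replicate number, with group means (lines) and SD (bars, n = 4 each). Single livers stand out, among them treated replicate 1 for Cxcl13 (10.6), control replicate 1 for Cxcl1 (9.16) and control replicate 4 for Ccl5 (8.10).

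The 5 ligands of CCR1 and related receptors had a median difference of 0.00099, with 3 higher and 2 lower. Ccl5, which T and NK cells make on activation, was at 6.23, 6.61, 6.18 and 8.10 in control and 6.86, 6.92, 7.13 and 6.89 in treated livers. The 4 treated values lay close together (SD 0.12) and above 3 of the controls, while control replicate 4 exceeded all of them. The difference was 0.17 ± 0.38 (limma adjusted p = 0.968). Without control replicate 4 it was 0.61, with a limma p of 0.000712 unadjusted and 0.246 adjusted, and it was -0.03 without control replicate 3. In control replicate 4, Ccl3 was also highest, at 5.48 against 4.84 to 4.89 in the other controls, and so were 7 of the 11 measured T and NK cell markers, Cd3e at 7.05 against 5.50 to 6.27 in the other 7 livers. The summed T and NK level was 0.33 there, between -0.13 and -0.12 in the other controls and between -0.04 and 0.08 in treated livers, and its part in the Ccl5 values was not tested. Of the 11 markers, 6 had a mean over the 8 arrays above the negative control median. Gzma and Cd2, both highest in control replicate 4, were not among these. Nor were the NK cell markers Ncr1 and Klrb1c, with group means under 4. Cd3d and Gzmb were highest in treated replicate 1, at 5.04 and 4.74.

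Ccl9, a ligand of CCR1 made by macrophages and their precursors, was the other gene well above the negative controls in every liver. It was at 9.16, 8.48, 8.38 and 8.69 in control and 7.89, 8.77, 8.93 and 8.21 in treated livers. The highest value was again in control replicate 1 and the lowest in treated replicate 1. The difference was -0.23 ± 0.25 (limma adjusted p = 0.893), and -0.07 without control replicate 1 and -0.04 without treated replicate 1. Ccl6, its close relative, differed by 0.15 ± 0.14, Ccl3 by -0.04 ± 0.16 and Ccl4 by 0.00099 ± 0.054.

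**Figure D4:**
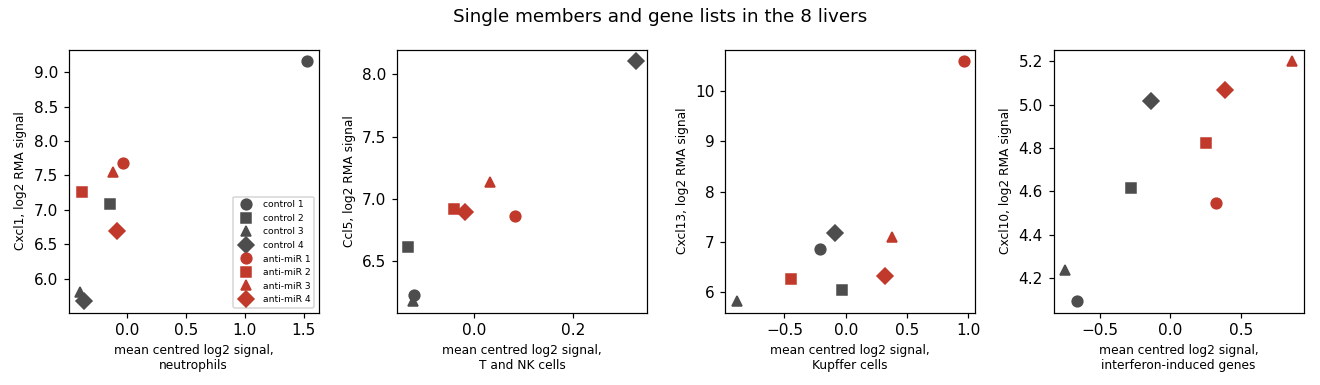
Log2 RMA signal of Cxcl1, Ccl5, Cxcl13 and Cxcl10 (vertical axes) beside the mean centred log2 signal of a gene list (horizontal axes: neutrophil, T and NK cell, Kupffer cell and interferon-induced genes) in the 8 livers. The liver with the highest Cxcl1, Ccl5, Cxcl13 or Cxcl10 is in each case also the one with the highest list level. These pairs were not fixed beforehand, and other genes differ. Cxcl9, also interferon-induced, was highest in control replicate 4 (8.70), where the interferon list was not. Ccl9, made by macrophages, was lowest (7.89) in treated replicate 1, the liver with the highest Kupffer level. Below its top liver, Cxcl13 was 7.18 in control replicate 4 (Kupffer level -0.09) and 6.32 in treated replicate 4 (0.32).

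Among the 8 homeostatic and lymphoid CC ligands, which steer lymphocytes through resting tissues, 6 were lower in treated livers, and the median difference was -0.06. Ccl25, the gut and thymus chemokine that binds CCR9, was at 6.54, 6.63, 6.70 and 6.67 in control and 6.42, 6.61, 6.37 and 6.54 in treated livers. The groups overlapped through control replicate 1 and treated replicates 2 and 4. Its difference was -0.15 ± 0.06 (unadjusted p = 0.0470, limma adjusted p = 0.643). Ccl19, a ligand of CCR7, was at 6.15, 6.29, 6.31 and 6.06 in control and 6.26, 5.87, 6.07 and 6.11 in treated livers (-0.12 ± 0.09). The mouse genome holds near-identical copies of Ccl19 that an array may not separate, so its value is uncertain. Ccl17, a ligand of CCR4, was at 4.43, 4.30, 4.29 and 4.33 in control and 4.40, 4.15, 4.27 and 4.16 in treated livers (-0.10 ± 0.07). The other 5 (Ccl1, Ccl20, Ccl22, Ccl27a and Ccl28) differed by -0.11 to 0.07. Of the eosinophil attractants, Ccl26 was at 4.51, 4.47, 4.72 and 4.54 in control and 4.47, 4.56, 4.31 and 4.51 in treated livers (-0.10 ± 0.07), and Ccl24, which liver macrophages make, differed by 0.28 ± 0.27.

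Differences of the 17 receptors lay between -0.26 and 0.18, and none had an unadjusted p under 0.05. Ccr3, the eosinophil receptor, was at 3.15, 3.40, 3.14 and 3.03 in control and 2.89, 3.12, 2.85 and 3.05 in treated livers (-0.20 ± 0.09, limma adjusted p = 0.671, and -0.13 without control replicate 2). Ccr4, found on helper and regulatory T cells, was at 3.46, 3.21, 3.69 and 3.80 in control and 3.39, 3.13, 3.13 and 3.48 in treated livers (-0.26 ± 0.14, limma adjusted p = 0.722). Both were below the negative control median in every liver. Ccr8, another T cell receptor at that level, was at 3.81, 3.75, 3.64 and 3.70 in control and 3.57, 3.60, 3.76 and 3.63 in treated livers (-0.08 ± 0.06). Ccr7, which guides dendritic and T cells to lymph nodes, was above the negative control median on all 8 arrays but never above the 95th percentile, at 5.51, 5.55, 5.57 and 5.60 in control and 5.72, 5.60, 5.57 and 5.74 in treated livers (0.10 ± 0.05, limma adjusted p = 0.714). The other receptors (Ccr1, Ccr6, Ccr9, Ccr10, Cxcr1, Cxcr5 and Xcr1) differed by -0.11 to 0.05. Of the atypical receptors, Ackr1, which carries chemokines across vessel walls, differed by -0.15 ± 0.20, Ackr2, a scavenger of inflammatory CC ligands, by -0.05 ± 0.08, and Ackr4 by -0.12 ± 0.09.

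Several ligands were spread widely between livers of a group. A range of more than 1 log2 unit within the control or the treated livers was seen in 6 of the 55 genes (10.9%), against 2.63% of all genes, a share that was not tested. These were Cxcl13, Cxcl1, Cxcl9, Ccl5, Ccl9 and Ccl24. In SD over the 4 control livers 10 of the 55 (18.2%) lay above the 95th percentile of all genes, and over the treated livers 9 (16.4%) did. The 3 genes Cx3cl1, Ccl12 and Xcl1 were close together in control livers (2.12th, 9.10th and 11.8th percentile of control SD) and further apart in treated livers (81.8th, 92.6th and 96.5th), a contrast picked after the values were seen and not tested. Ccr9, below the negative control median in every liver, had the narrowest range of the 55, at 0.0461.

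**Figure D5:**
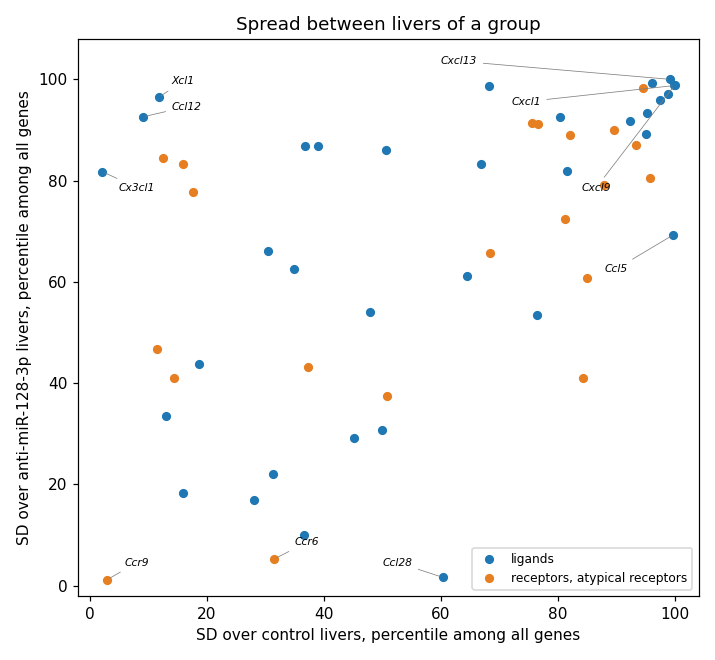
SD over the 4 control livers (horizontal) and over the 4 anti-miR-128-3p livers (vertical) for each of the 55 genes, given as the percentile among all 30627 genes. Cxcl13, Cxcl1 and Cxcl9 lie near 100 on both axes, and Ccl24, Cxcl10 and Ccl9 lie at 96.0 or above on both. Ccl5 is near 100 for control livers alone.

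Genes that act around chemokines were counted from lists of other names. Beside the counts below, 4.26% of all genes were higher and 3.37% lower at an unadjusted limma p under 0.05. Of 7 chemokine-like genes and receptors of other symbols, 5 were higher, and 1 had an unadjusted p under 0.05 and 0 passed. That gene was Ccrl2, which presents chemerin to leukocytes, at 4.21, 4.34, 4.24 and 4.68 in control and 4.79, 4.68, 4.77 and 4.66 in treated livers (0.35 ± 0.10, limma adjusted p = 0.396). The platelet chemokines Pf4 and Ppbp differed by -0.07 ± 0.08 and 0.09 ± 0.26. Of 37 measured signalling genes, 28 were higher with a median difference of 0.03, and the only one with an unadjusted p under 0.05 was Grk3, a kinase that switches off activated receptors (0.32 ± 0.11, limma adjusted p = 0.551). Among 19 measured upstream inducers, 3 had an unadjusted p under 0.05, all higher: the interferon signalling genes Stat2 (0.30 ± 0.06), Irf7 (1.52 ± 0.30) and Irf1 (0.38 ± 0.16). None of these passed over all genes, and the inducers' median difference was -0.01. Irf7 is also one of the interferon-induced genes counted further above, so it enters both counts. Of the 6 genes that trim or bind chemokines, Ext1, which builds heparan sulfate, differed by -0.23 ± 0.08 without overlap between groups (limma adjusted p = 0.511).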

How the data were processed

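The deposited values are log2 signals that the authors computed with RMA, per the submitters' processing notes, for 8 arrays of liver RNA extracted with TRIzol, per the labels' protocols. The version of RMA is not given in the sources used here. Of 72688 rows, 6732 controls entered no test, and 31080 probe sets name exactly 1 gene by the platform annotation, with symbols updated through Entrez ID against RefSeq (GRCm38.p6, used for names and sequences). Where several probe sets name a gene, the brightest on average was taken, giving 30627 genes. Each of the 55 chemokine and receptor genes had a single probe set. Differences are treated minus control, fitted with limma 3.58.1 in R 4.3.3 (default moderation, two-sided, no covariate), with Benjamini-Hochberg adjustment over all genes, and p-values measure the spread between arrays, which nothing in the labels states outright to be separate mice. Errors on differences are limma's SE. A list's summed level is the average, over its genes, of log2 signals centred gene by gene. The genes, lists and tests were chosen with earlier results of these data known. Values on all 8 arrays are given for the 16 genes with the smallest p and for ligands and receptors of fixed pairs, and for Cxcl13 and Ccl9, which were added after their values were seen. The number of arrays limits the precision. The script was tested on simulated data. Python 3.11.15, pandas 2.3.3 and matplotlib 3.10.9 made tables and plots.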

Additional observations from a re-analysis of the deposited data

Results flagged for a closer look

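A liver far from the other 3 of its group, by a gap that takes up more of the group's range than Dixon's 95% critical value allows, was looked for in the 110 groups (55 genes, 2 groups each), and 7 were found (6.36%), where chance gives about 1 in 20. In control livers these were Ccl3 in replicate 4 (5.48, next 4.89), Ackr2 in replicate 1 (6.13, next 6.05) and Cxcl15 in replicate 1 (3.87, next 3.74). In treated livers they were Ccl2 in replicate 3 (5.56, next 5.23), Cxcl9 in replicate 3 (8.67, next 7.89), Cx3cr1 in replicate 2 (5.92, next 5.62) and Cxcr5 in replicate 4 (4.53, next 4.17). The gaps for Ackr2 and Cxcl15 were 0.08 and 0.13 log2 units.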

How the results depend on the processing

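No chemokine or receptor gene passed an adjusted p of 0.05, or of 0.1, under any of the 18 other settings, and the smallest adjusted p of any was 0.246. The genes higher at unadjusted p numbered 2 to 5 with single livers left out, the lower ones 0 to 2 and those without overlap 1 to 4. Among all genes 0 to 1 passed. Higher genes numbered 1 of the 22 left with dim genes under the median level removed, and lower genes 0 there, 0 with genes under the 25th percentile removed and 0 with arrays centred on their medians. Replicate numbers gave no sign of pairing: deviations of same-numbered livers correlated at -0.15 to -0.04, and those of other pairs at -0.12 to 0.16. Such correlations cannot exclude that livers shared a batch. With the replicate block 4 genes were higher and 2 lower. Dropping replicate 1 of both groups, an alternative chosen after seeing the data, gave 4 higher, 0 lower and 6 without overlap. Shares over all genes are not given here for that fit, the replicate block, the centred arrays or the fits without dim genes. Their counts therefore cannot be set against a background, and fewer livers make separation easier by construction. With dim genes under the median level removed, the median difference was 0.075 over the genes left and 0.16 over ligands. It was 0.22 over the 3 genes whose mean over the 8 arrays lay above the negative controls' 95th percentile. Over receptors above the 25th percentile of level it was 0.022. These filters kept fewer and brighter genes, and the cause of the shifts was not tested. The median log2 difference over receptors was -0.039 to 0.0025 with single livers left out, and 0.00575 without both replicates 1. Signs turned with single livers left out for Ccr2 (-0.046 to 0.11), Ccl5 (-0.029 to 0.61), Cxcl9 (-0.11 to 0.75), Cx3cr1 (-0.0082 to 0.11), Cxcl16 (-0.079 to 0.13), Cxcr6 (-0.0115 to 0.055), Cxcl1 (-0.056 to 1.10) and Cxcr2 (-0.061 to 0.070). With both replicates 1 left out Cxcl9 was at -0.025, Cxcl16 at -0.090, Cxcr2 at 0.067 and Ccl9 at 0.12 (-0.39 to -0.042 with single livers left out), and with array weights Cxcr2 was at 0.0089. Differences of Ccr3 (-0.25 to -0.13), Ccl12 (0.08 to 0.26), Ccl11 (-0.20 to -0.06), Ccl19 (-0.19 to -0.05) and Ccl26 (-0.13 to -0.04) kept their sign with single livers left out. The cause was not tested. The planned description of protein sequences was not run. The alternative probe set choices changed no difference of the chemokine and receptor genes, since each of these had 1 probe set. Their p-values were fitted anew together with all genes.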
